A study of Mus musculus with 6 samples.

Results

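The genes described here are occludin, the other junction proteins with a MARVEL domain and the angulins, found in the count table by the symbols Ocln, Marveld2, Marveld3, Marveld1, Lsr, Ildr1 and Ildr2. All 7 were listed, among 57127 genes. The libraries came from whole epididymis of adult C57BL/6 mice, 3 of wild type (WT) and 3 of Ocln-/- (Ocln-KO) genotype, and the question was how the knockout epididymis differs in its transcripts. Ocln-KO males were bred from heterozygous pairings, and the exon deleted in the knockout allele is not given in the sources used here. The methods speak both of separate extraction from 3 pairs of mice and of pooled RNA, so n counts libraries, and p-values measure the spread between these libraries.

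Tight junctions seal the space between neighbouring epithelial cells, and in the epididymis they form the blood-epididymis barrier around the sperm-bearing lumen. Along the border of a pair of cells the strands are built of claudins, with occludin as the first MARVEL protein found there. At the corners where several cells meet, the angulins Lsr, Ildr1 and Ildr2 are the membrane receptors that bring in tricellulin, the product of Marveld2.

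Total counts ran from 30646424 to 38870780 per library, and 1 count equalled 0.0267 to 0.0314 CPM (counts-per-million) after scaling. Enough counts for a test were present in 19691 genes, including all 7 junction genes. An extraction protocol in the labels names prefrontal cortex, whereas the labelled tissue is epididymis. Crisp1, a major secretory product of the epididymis, stood at 14891 ± 2188 CPM in the WT libraries against 7852 ± 2982 CPM in the Ocln-KO libraries (SD, n = 3), without overlap (log2 fold change -0.92, adjusted p = 0.0855, edgeR). The 10 neuronal and glial markers together held 36.1, 39.2 and 31.0 CPM in the WT libraries.

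Ocln checks the genotype labels and was measured first. The WT libraries held 85.9, 78.8 and 91.8 CPM of Ocln, and the Ocln-KO libraries 15.1, 15.3 and 14.9 CPM. Every Ocln-KO library lay far below every WT library, and the Ocln-KO values were nearly identical to each other. On average 17.7% of the WT level was left. The log2 fold change, Ocln-KO over WT, was -2.50 with a standard error of 0.09 (adjusted p = 0.000108, edgeR's quasi-likelihood test adjusted over all 19691 genes by Benjamini and Hochberg). Between 486 and 503 reads per Ocln-KO library were still assigned to Ocln. Which exons they cover cannot be read from counts per gene.

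On the first principal component of log2 CPM, which held 47.2% of the variance, the WT libraries lay at -43.3, -37.0 and -52.8. Ocln-KO replicates 1 and 2 lay at 17.7 and 29.1, and Ocln-KO replicate 3 stood apart at 86.3. Results are therefore also given without that library. The Ocln fold change was -2.49 without it.

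Of the 7 genes, 3 passed an adjusted p of 0.05 in edgeR, where 8.95% of all tested genes did. Marveld2 was the 1 higher in Ocln-KO (3.91% of all tested genes were higher), and Ocln and Ildr2 were the 2 lower (5.04% were lower). Apart from the targeted gene, 2 of 6 changed. Ocln and Ildr2 passed with a difference of more than 2-fold, as did 3.19% of tested genes. For these 3 genes, as for 36.3% of tested genes, the Ocln-KO libraries all lay on the same side of the WT libraries. The median log2 fold change of the 7 was 0.05, against 0.01 for all tested genes. Among all genes called, 43.7% were higher in Ocln-KO, and 63.5% with scaling by total counts only.

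**Figure D1:**
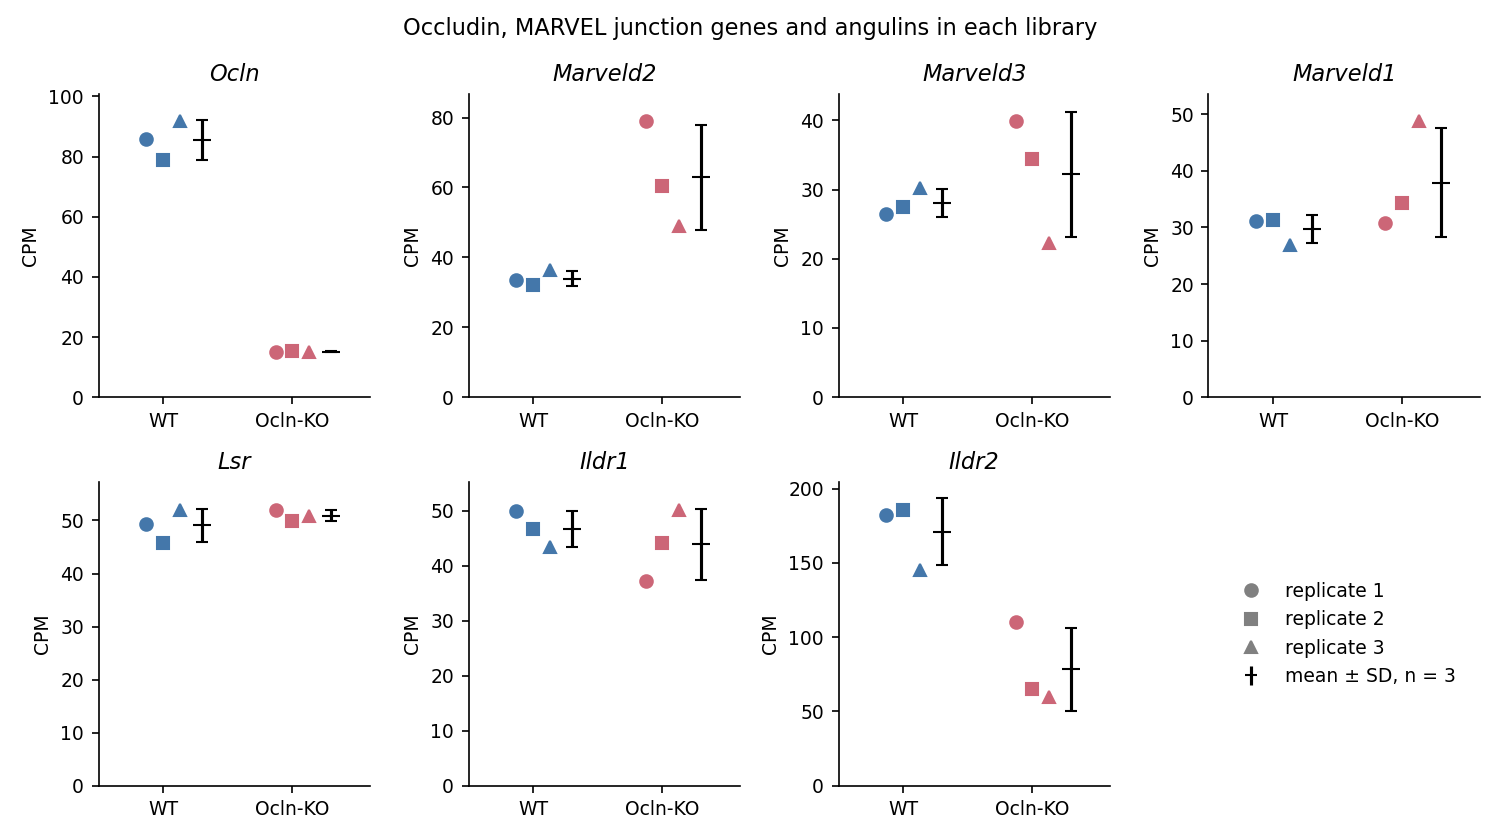
Level of each gene in CPM (vertical axis, starting at 0, its range differing between panels) in each WT and Ocln-KO library, with the mean ± SD of 3 libraries beside the points. Ocln stayed at 14.9 to 15.3 CPM in Ocln-KO, Marveld2 was higher in every Ocln-KO library than in any WT library, Ildr2 was lower in every Ocln-KO library, and Lsr stayed between 45.8 and 52.1 CPM throughout.

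Marveld2 encodes tricellulin, the closest relative of occludin, which sits at the corners where cells meet. It is also a neighbour of Ocln, at chr13:100595957-100616971 on the minus strand of GRCm38, with Ocln at chr13:100496504-100552718 on the same strand. The WT libraries held 33.4, 32.0 and 36.4 CPM of Marveld2, and the Ocln-KO libraries 79.0, 60.5 and 49.1 CPM. The lowest Ocln-KO library, replicate 3, still exceeded the highest WT library. Marveld2 rose 1.85-fold (log2 fold change 0.89, standard error 0.17, adjusted p = 0.0257, edgeR). The spread was far wider in Ocln-KO, with a coefficient of variation of 24.0% against 6.49% in WT. This coefficient was also larger in Ocln-KO for Marveld3, Marveld1, Ildr1 and Ildr2, and smaller for Ocln and Lsr. Without Ocln-KO replicate 3 the log2 fold change of Marveld2 was 1.04 (adjusted p = 0.00383, edgeR). The call ended without WT replicate 1, 2 or 3 (adjusted p = 0.110, 0.0822 and 0.0938 in edgeR) and without Ocln-KO replicate 2 (adjusted p = 0.0587, edgeR). Log2 fold changes in these fits were 0.88, 0.85, 0.94 and 0.92. With a block for replicate number the call of Marveld2 also ended, at a log2 fold change of 0.86.

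Marveld3, the remaining MARVEL protein of tight junctions, lies at chr8:109947909-109962205. Its WT libraries held 26.4, 27.5 and 30.3 CPM and its Ocln-KO libraries 39.9, 34.5 and 22.3 CPM. Ocln-KO replicates 1 and 2 lay above every WT library and replicate 3 below every WT library. The log2 fold change was 0.20 (95% interval -0.26 to 0.66, adjusted p = 0.555, edgeR), with 0.020 (adjusted p = 0.960) without Ocln-KO replicate 1 and 0.40 (adjusted p = 0.0748) without Ocln-KO replicate 3.

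Marveld1 shares the MARVEL domain but is not known as a component of tight junction strands. The gene, with a single-exon longest transcript at chr19:42147389-42151703, ran from 26.9 to 31.2 CPM in the WT libraries and from 30.7 to 48.8 CPM in the Ocln-KO libraries. Its highest value was in Ocln-KO replicate 3, the library with the lowest Marveld2 and Marveld3 among the Ocln-KO libraries. The genotypes overlapped, and the log2 fold change of 0.35 did not pass (adjusted p = 0.225, edgeR). It was 0.13 without Ocln-KO replicate 3, the lowest of the 6 omissions, which reached up to 0.49.

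Among the angulins, Ildr2 differed most between genotypes. The gene spans chr1:166254060-166316832, and its product is a membrane protein of tricellular contacts. The WT libraries held 182, 186 and 145 CPM of Ildr2, and the Ocln-KO libraries 110, 65.1 and 59.6 CPM. Every Ocln-KO library lay below every WT library, with Ocln-KO replicate 1 nearest to WT. Ildr2 fell to 45.7% of its WT level (log2 fold change -1.13, standard error 0.23, adjusted p = 0.0314, edgeR). Without Ocln-KO replicate 3 it was -0.97 (adjusted p = 0.0279, edgeR). The call ended without WT replicate 1, 2 or 3 (adjusted p = 0.118, 0.0881 and 0.0932 in edgeR) and without Ocln-KO replicate 2 (adjusted p = 0.0834, edgeR). Log2 fold changes in these fits were -1.08, -1.07, -1.23 and -1.01. With a block for replicate number the call of Ildr2 also ended, at a log2 fold change of -1.17. An antisense gene, 5330438I03Rik, shares 11.04% of the exon bases of Ildr2, and the strand setting of the counting is not given in the sources used here.

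Lsr, the angulin that also serves as a lipoprotein receptor in liver, lies at chr7:30957770-30973469. It held 49.4, 45.8 and 52.1 CPM in the WT libraries against 52.0, 49.9 and 50.8 CPM in the Ocln-KO libraries. The Ocln-KO libraries fell within the WT range, with a coefficient of variation of 2.03%. The 95% interval of its log2 fold change ran from -0.15 to 0.25 (estimate 0.05, adjusted p = 0.732, edgeR). Antisense genes overlap Lsr as well, Gm4673 sharing 43.6% and Gm17077 1.15% of its exon bases, so part of these counts could belong to either strand.

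Ildr1, the angulin whose loss causes deafness in mice and humans, lies at chr16:36693978-36726804. It ran from 43.3 to 49.9 CPM in the WT libraries and from 37.2 to 50.2 CPM in the Ocln-KO libraries, with overlapping genotypes. Its log2 fold change was -0.09 (95% interval -0.38 to 0.20, adjusted p = 0.678, edgeR). In bulk tissue, fewer cells of a type and less RNA per cell cannot be told apart for the 6 genes other than Ocln, the targeted gene.

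**Figure D2:**
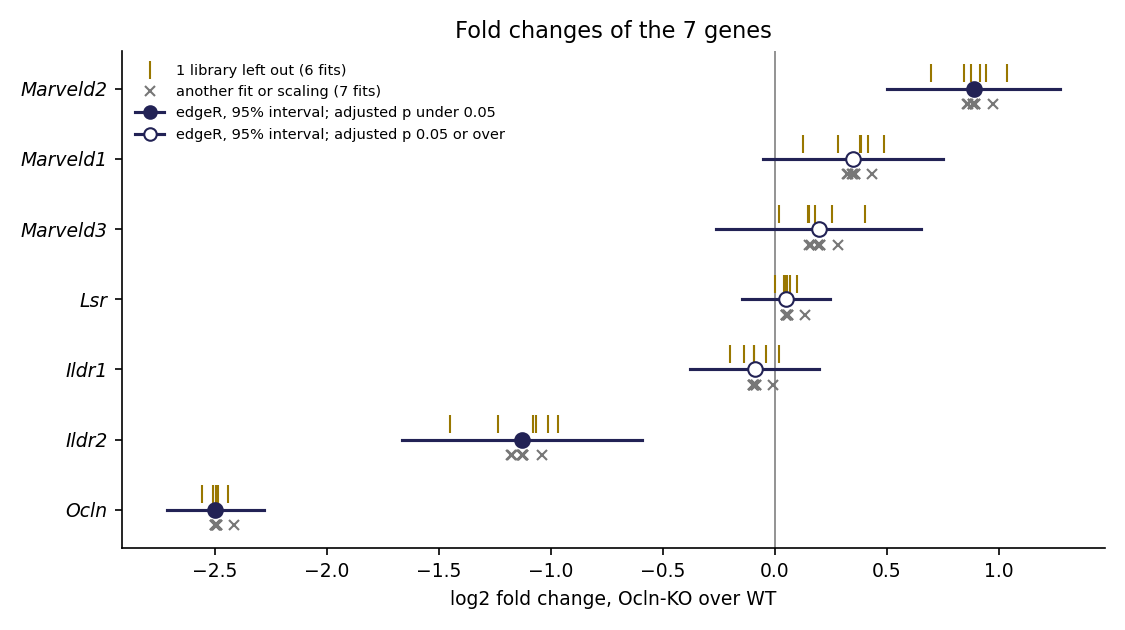
Log2 fold change of each gene, Ocln-KO over WT, with its 95% interval from edgeR (filled where the adjusted p is under 0.05), vertical marks for the 6 fits that leave out 1 library and crosses for 7 other fits or scalings. All 13 alternatives put Ocln between -2.56 and -2.41, Marveld2 between 0.70 and 1.04 and Ildr2 between -1.45 and -0.97, while Ildr1 ran from -0.20 to 0.021, across 0.

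The promoters were compared because the repressors Snail and ZEB, which silence occludin and other epithelial junction genes in cultured cells, bind an E-box with the letters CAGGTG. RefSeq promoters, from 250 bases before to 50 after a start on GRCm38.p6, were held for 6 of the 7 genes, and not for Marveld3. The E-box, on either strand as CAGGTG or CACCTG, was found in 5 of the 6, in Ocln, Marveld2, Lsr, Ildr1 and Ildr2, and not in the window of Marveld1. Of 27025 genes with a promoter, 22.6% held it, and 20.2% of the 32851 promoter windows. For each start, the match nearest to it is shown 5′ to 3′ on the strand of the gene, with the E-box in capitals and up to 10 bases on either side.
Ocln, chr13:100552551-100552576: aggggctcggCAGGTGggtcccagcg
Ocln, chr13:100552696-100552721: atcggagtttCAGGTGaatgggtcac
Marveld2, chr13:100616922-100616938: ggcggccgcgCAGGTGa
Lsr, chr7:30973523-30973548: ggcaggagcgCACCTGagtcagccca
Ildr1, chr16:36693880-36693905: ggagatgggtCACCTGgcagcctgtg
Ildr2, chr1:166253913-166253938: acacccagtaCAGGTGcaaggaaaca
Positions are counted from the start belonging to the window. Ocln and Marveld2 have 2 windows each, with different starts. The Ocln matches at -68 and 8 are counted from different starts, and the match at -68 lies downstream of the other along the gene. That of Marveld2 stands at 44, where its window of the upstream start ends. In Lsr it stands at -69, with others at -249, -219 and -151. The positions are -88 in Ildr1 and -216 in Ildr2. The letters were thus shared by Marveld2, which rose, by Ildr2, which fell, and by Lsr and Ildr1, which did not pass. Ocln held them too, but it is the targeted gene, so its fall is not set beside the motif. The grainyhead motif AACCNGTT, bound by factors that activate epithelial junction genes, was in 0 of the 6 promoters and in those of 2.35% of genes on either strand. A match is a description of the letters, and binding was not measured.

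Levels of different genes were compared per length, as CPM per kilobase of the union of annotated exons. In WT the order was Lsr at 22.6 ± 1.44, Ildr2 at 20.7 ± 2.74 and Ocln at 20.2 ± 1.54 CPM per kilobase (SD, n = 3), whose ranges overlapped. Ildr1 at 10.9 ± 0.77 and Marveld2 at 10.04 ± 0.65 CPM per kilobase followed below Ocln and overlapped each other. Marveld3 at 8.55 ± 0.60 and Marveld1 at 6.92 ± 0.58 CPM per kilobase came last, each clear of the gene before it.

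In Ocln-KO, Lsr again led at 23.4 ± 0.48 CPM per kilobase (SD, n = 3), now overlapped by Marveld2 at 18.6 ± 4.46. Below them Ildr1 at 10.2 ± 1.51, Marveld3 at 9.81 ± 2.75, Ildr2 at 9.48 ± 3.35 and Marveld1 at 8.82 ± 2.22 CPM per kilobase each overlapped the next. Ocln came last at 3.58 ± 0.05 CPM per kilobase, below all libraries of Marveld1. The places depend on the length used. With the longest GENCODE transcript, an alternative added after the values were seen, Ocln stood before Ildr2 and Marveld3 before Marveld2 in WT, and Marveld1 before Ildr2 in Ocln-KO, each with libraries overlapping those of the gene it preceded. With both lengths Marveld2 stood below Ildr1 in WT and next after Lsr in Ocln-KO.

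**Figure D3:**
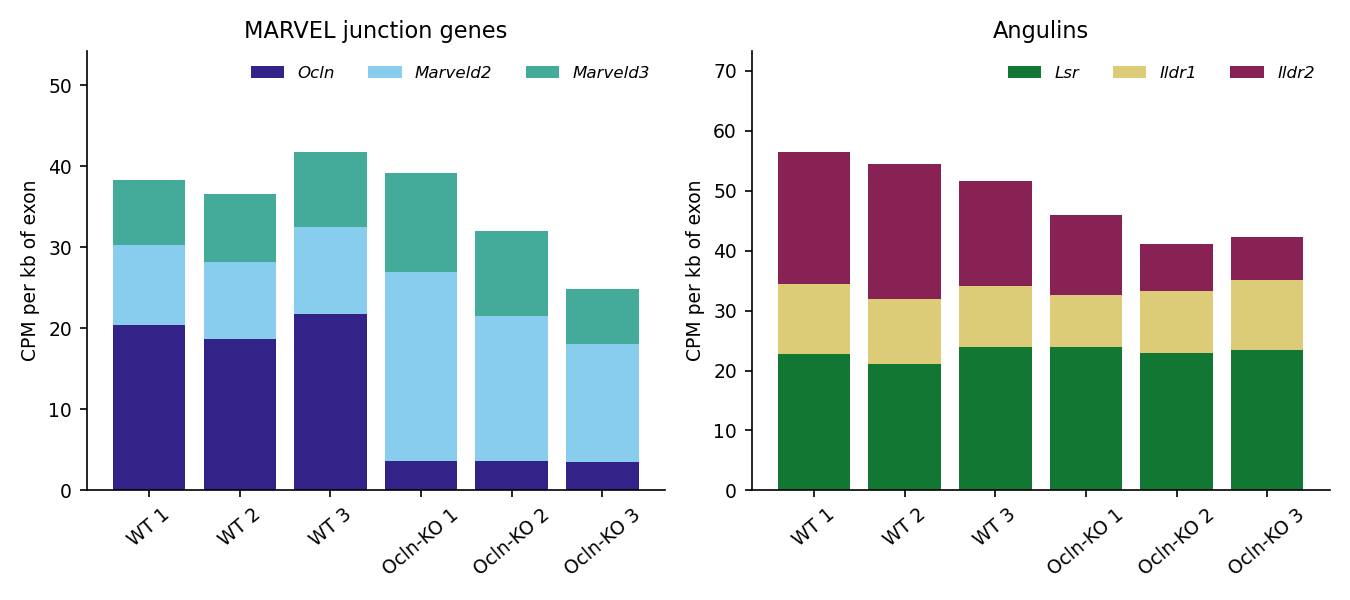
Stacked levels per library in CPM per kilobase of exon, for Ocln, Marveld2 and Marveld3 on the left and for Lsr, Ildr1 and Ildr2 on the right, with bars starting at 0. The Ocln layer was 18.7 to 21.7 in WT and 3.53 to 3.64 in Ocln-KO, the Marveld2 layer 14.5 to 23.4 in Ocln-KO, and the Ildr2 layer 17.6 to 22.5 in WT and 7.23 to 13.3 in Ocln-KO.

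The 3 MARVEL proteins of tight junctions were also described as a sum, after their values had been seen and without a test. Ocln, Marveld2 and Marveld3 together held 38.3, 36.5 and 41.7 CPM per kilobase in the WT libraries and 39.1, 32.0 and 24.8 in the Ocln-KO libraries. Ocln-KO replicate 1, where Marveld2 and Marveld3 were highest, lay within the WT range, and the other Ocln-KO libraries lay below it. Ocln made up 52.1 ± 1.02% of the sum in WT and 11.6 ± 2.52% in Ocln-KO (SD, n = 3). Marveld2 made up 25.8 ± 0.08% in WT and 58.0 ± 1.98% in Ocln-KO. These shares add to a whole, so a smaller Ocln share raises the others, and the same holds among the angulins.

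The balance among the angulins Lsr, Ildr1 and Ildr2 was compared as the share of each in their sum. Ildr2 made up 39.1, 41.4 and 34.0% of the angulin sum per length in the WT libraries and 29.0, 19.2 and 17.1% in the Ocln-KO libraries. Its share was smaller in each Ocln-KO library than in any WT library (exact two-sided permutation p = 0.1, the smallest that 3 against 3 libraries can give). The share of Lsr was 41.8 ± 4.07% in WT and 54.4 ± 2.03% in Ocln-KO (SD, n = 3, exact permutation p = 0.1). That of Ildr1 was 20.0 ± 0.53% and 23.8 ± 4.49%, with overlapping libraries (exact permutation p = 0.4). The angulin sum itself was 54.2 ± 2.42 CPM per kilobase in WT and 43.1 ± 2.50 in Ocln-KO.

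Because Marveld2 is the nearest tested gene on its side of the targeted gene, the other genes near Ocln were examined. RefSeq places 47 genes within 1 Mb of either end of Ocln, of which 24 were tested and 4 passed, all higher in Ocln-KO. Leaving out Marveld2, whose rise led to this look, 3 of 23 tested neighbours were higher, or 13.04%, where 3.91% of all tested genes were. These were Naip1, Naip3 and Naip6, relatives among the intracellular sensors of bacterial proteins, Naip3 being annotated as a pseudogene. The window held 6 tested Naip genes. Naip5, Naip3-ps1 and Naip2 did not pass (log2 fold changes 0.76, 0.07 and -0.59, adjusted p = 0.239, 0.939 and 0.557, edgeR). Naip1 stood at 9.90 ± 1.11 CPM in the WT libraries against 50.8 ± 19.3 CPM in the Ocln-KO libraries (SD, n = 3, log2 fold change 2.36, adjusted p = 0.00980, edgeR). Naip3 and Naip6 changed by 1.92 and 1.07 on the log2 scale (adjusted p = 0.0376 and 0.0476, edgeR). Neither passed in limma-voom (adjusted p = 0.0798 and 0.0676) or in any omission but that of Ocln-KO replicate 3. Naip1 did not pass without WT replicate 1 or 3. Naip genes are near-identical copies, and how the counting split reads among them is uncertain, so they may not be separate results.

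Marveld2 lies 43.2 kb from Ocln on one side, and Naip1 lies 43.6 kb away on the other. Between Naip1 and Ocln lies Gtf2h2, a subunit gene of a general transcription factor and the nearest tested neighbour at 3.90 kb. It had 11.5 ± 0.96 CPM in the WT libraries against 13.4 ± 1.11 CPM in the Ocln-KO libraries (SD, n = 3, log2 fold change 0.22, adjusted p = 0.333, edgeR). The nearest tested neighbour thus did not pass, and the next tested gene on either side did. Of the 23 tested neighbours other than Marveld2, 18 had a log2 fold change above 0, and their median was 0.34, against 0.01 for all tested genes. Within 5 Mb, Marveld2 and the Naip genes included, 8 of 78 tested genes were higher and 4 lower. Of all tested genes, 3.91% were higher and 5.04% lower. Without WT replicate 1, 2 or 3 or Ocln-KO replicate 2, the number of called neighbours was 0, 1, 0 and 1, and it was 3 and 5 without Ocln-KO replicates 1 and 3.

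**Figure D4:**
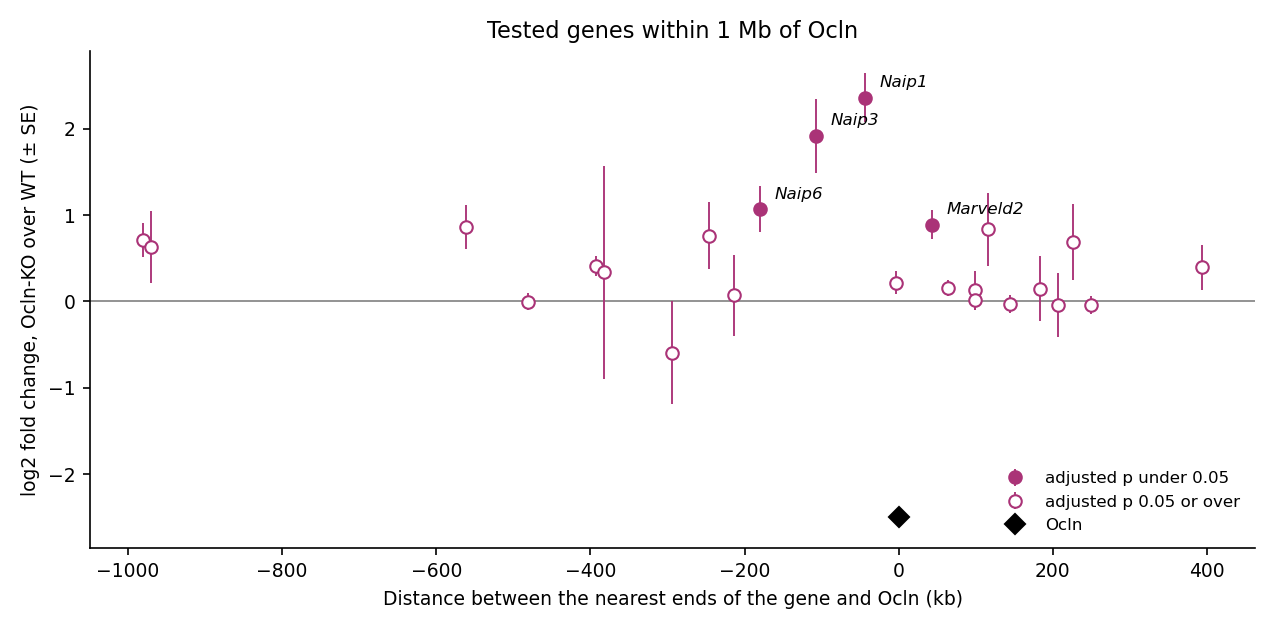
Log2 fold change (± SE) of the 24 tested genes within 1 Mb of Ocln against their distance from it in kb, with Ocln itself as a diamond at 0. The 4 filled points, Naip6, Naip3, Naip1 and Marveld2, passed the test and lie above 0, whereas Gtf2h2, 3.90 kb from Ocln, lies at 0.22.

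Other genes of the junction, MARVEL-domain genes outside it and transcription factors were read from 6 lists. In these, 11 of 80 tested genes passed, or 13.8%, where 8.95% of all tested genes did. Of the called genes, Sypl2, Elf5, Zeb1 and Zeb2 come from the lists outside the junction. Counts of each list stand beside 3.91% of all tested genes higher and 5.04% lower. Claudins form the strands that occludin accompanies, and 14 of 25 were tested. In Ocln-KO, 2 were higher and 1 lower. Cldn4, a barrier-forming claudin, stood at 15.7 ± 1.15 CPM in the WT libraries against 32.9 ± 2.81 CPM in the Ocln-KO libraries (SD, n = 3, log2 fold change 1.07, adjusted p = 0.00771, edgeR). Cldn10, an ion channel-forming claudin, rose from 4.28 ± 2.89 to 17.1 ± 2.23 CPM (log2 fold change 1.996, adjusted p = 0.0316, edgeR). It changed by 2.70 on the log2 scale without WT replicate 2, and did not pass without WT replicate 1 or 3 or Ocln-KO replicate 2. Cldn4 passed in every omission but that of WT replicate 1 (adjusted p = 0.0557). Cldn9 fell from 0.75 ± 0.17 to 0.051 ± 0.047 CPM, at most 3 counts in any Ocln-KO library (adjusted p = 0.0296, edgeR), and did not pass without WT replicate 1, 2 or 3 or Ocln-KO replicate 2. The median log2 fold change of the tested claudins was 0.02.

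Of the cytoplasmic scaffolds, JAM proteins and polarity proteins, 21 of 22 were listed and tested, Patj not being found under that symbol, and 2 were higher and 1 lower. Tjp1, the ZO scaffold that binds the tail of occludin, held 169, 170 and 158 CPM in the WT libraries and 235, 220 and 210 CPM in the Ocln-KO libraries. It was higher in every Ocln-KO library (log2 fold change 0.42, standard error 0.08, adjusted p = 0.0299, edgeR). Tjp3, another ZO scaffold, had a log2 fold change of -0.38 and did not pass (adjusted p = 0.297, edgeR). Magi1, a scaffold of epithelial junctions, was higher (0.46, adjusted p = 0.0385) and Amotl1, an angiomotin-like protein, lower (-0.50, adjusted p = 0.0332) on the log2 scale in edgeR. Tjp1, Magi1 and Amotl1 did not pass without WT replicate 1, 2 or 3 or Ocln-KO replicate 2, nor did Magi1 without Ocln-KO replicate 1. The median of the list was 0.02.

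Of 7 binding partners of the MARVEL proteins, 1 passed. This was Map3k1, the kinase that Marveld3 recruits to junctions, at 331 ± 24.8 CPM in the WT libraries against 474 ± 68.6 CPM in the Ocln-KO libraries (SD, n = 3, log2 fold change 0.52, adjusted p = 0.0442, edgeR). Where 5.04% of all tested genes were lower, 1 of 21 tested genes with a MARVEL domain outside tight junctions was lower and 0 higher. That gene was Sypl2, known from muscle, with a log2 fold change of -0.69 (adjusted p = 0.0354, edgeR). Neither Map3k1 nor Sypl2 passed without WT replicate 1, 2 or 3 or Ocln-KO replicate 2, and Map3k1 also did not without Ocln-KO replicate 1. The medians of these lists were -0.02 and 0.04.

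Transcription factors that repress epithelial junction genes were represented by 6 tested genes. Of these, 2 were higher in Ocln-KO, where 3.91% of all tested genes were. Zeb1 held 27.9, 24.9 and 24.3 CPM in the WT libraries against 34.7, 35.1 and 39.0 CPM in the Ocln-KO libraries. Every Ocln-KO library lay above every WT library (log2 fold change 0.50, adjusted p = 0.0299, edgeR). Zeb2 held 40.7, 42.8 and 35.6 CPM in the WT libraries against 53.4, 53.9 and 72.9 CPM in the Ocln-KO libraries (log2 fold change 0.60, adjusted p = 0.0441, edgeR). The median of the list was 0.58. Neither gene passed without WT replicate 1, 2 or 3 or Ocln-KO replicate 2. With Ocln-KO replicate 3 left out, Zeb2 passed (0.43 on the log2 scale, adjusted p = 0.0470) and Zeb1 did not (0.44, adjusted p = 0.0509, edgeR). Both genes are also expressed in connective tissue and immune cells, and which cells of the tissue carried the transcripts was not tested.

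Of all tested genes, 3.91% were higher, and among 11 tested factors that activate epithelial genes, 1 was higher and none lower. This was Elf5, an Ets factor of secretory epithelia, at 1.26, 1.05 and 0.24 CPM in the WT libraries against 3.37, 12.8 and 4.38 CPM in the Ocln-KO libraries (log2 fold change 3.005, adjusted p = 0.0399, edgeR). Without Ocln-KO replicate 2, its highest library, the log2 fold change was 2.18 (adjusted p = 0.0951), and Elf5 also did not pass without WT replicate 1, 2 or 3. It did not pass in limma-voom (adjusted p = 0.0671) and had too few counts for the filter of 10 in each library. With total counts only, Amotl1 and Sypl2 missed the threshold (adjusted p = 0.0501 and 0.0522, edgeR). The median of the list was 0.26. The number of genes called over the 6 lists, not always the same genes, was 11 with every library, 0, 2 and 1 without WT replicate 1, 2 and 3, and 13, 1 and 12 without Ocln-KO replicate 1, 2 and 3. All genes called fell likewise, from 1762 to 23, 230, 56 and 562 without the same WT libraries and Ocln-KO replicate 2, and numbered 1692 with Ocln-KO replicate 3 left out.

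**Figure D5:**
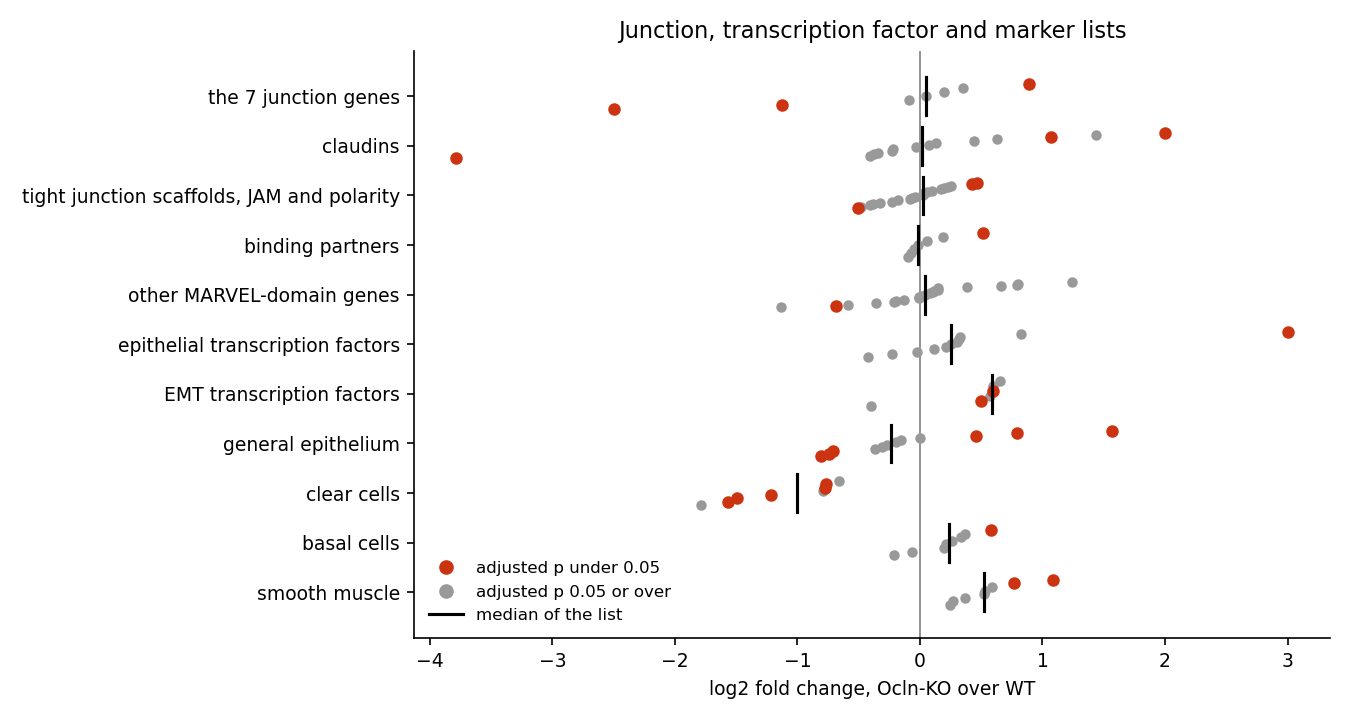
Log2 fold changes, Ocln-KO over WT, of the tested genes of each list, coloured where the adjusted p is under 0.05, with the median of each list as a vertical line. The 7 junction genes had a median of 0.05 with Ocln, Ildr2 and Marveld2 outlying, and the clear cell markers a median of -1.001 with all 8 tested genes below 0.

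Cell types of the tissue were followed by marker lists, since the 7 genes are mostly epithelial. Their counts stand beside 3.91% of all tested genes higher and 5.04% lower. Of 12 general epithelial genes, 3 were higher and 3 lower, with a median of -0.23. Their summed level was 4355, 4401 and 4395 CPM in the WT libraries and 3491, 3608 and 3123 CPM in the Ocln-KO libraries. Most of the gap came from the most abundant gene, Prom1, a protein of apical protrusions, which fell from 2063 ± 133 to 1258 ± 226 CPM (SD, n = 3, adjusted p = 0.0314, edgeR). Without Prom1 the sums overlapped, at 2241, 2239 and 2484 CPM in the WT libraries and 2444, 2112 and 1892 CPM in the Ocln-KO libraries. Krt7 and Rab25 were also lower, at -0.81 and -0.75 on the log2 scale (adjusted p = 0.00863 and 0.0228, edgeR). Krt19 and St14 were among those higher, at 0.79 and 0.46 (adjusted p = 0.0336 and 0.0322, edgeR). Counts of higher and lower genes were 0 and 0 without WT replicate 1 and also without WT replicate 3, 0 and 2 without WT replicate 2, 1 and 3 without Ocln-KO replicate 1, and 1 and 2 without Ocln-KO replicate 2.

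Clear cells, which acidify the lumen, were represented by 8 tested markers of 10, of which 5 were lower in Ocln-KO, where 5.04% of all tested genes were, and 0 higher. The list summed to 283, 256 and 359 CPM in the WT libraries and to 146, 149 and 79.0 CPM in the Ocln-KO libraries. Atp6v0d2, a subunit of the proton pump, fell from 23.3 ± 4.34 to 7.87 ± 2.60 CPM (SD, n = 3, log2 fold change -1.56, adjusted p = 0.0201, edgeR). Atp6v0a4, another pump subunit, was also lower, with a log2 fold change of -1.21 (adjusted p = 0.0245, edgeR). The most abundant marker, Car2, was lower in every Ocln-KO library but did not pass (adjusted p = 0.127, edgeR), and Slc4a9 and Slc26a4 had too few counts for a test. The number of lower genes was 0, 1 and 0 without WT replicate 1, 2 and 3, 3 without Ocln-KO replicate 2, and 5 with Ocln-KO replicate 3 left out. The part of clear cells in the fall of Ildr2 was not tested.

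Of 8 basal cell markers, 1 was higher. This was Krt14, at 28.5 ± 2.14 CPM in the WT libraries against 42.6 ± 4.67 CPM in the Ocln-KO libraries (SD, n = 3, log2 fold change 0.58, adjusted p = 0.0276, edgeR). The list summed to 693, 716 and 684 CPM in the WT libraries against 958, 802 and 787 CPM in the Ocln-KO libraries, its most abundant gene being Dst, which did not pass (adjusted p = 0.108, edgeR). Without Dst the sums overlapped, at 288, 270 and 283 CPM in the WT libraries and 330, 277 and 326 CPM in the Ocln-KO libraries. The highest sum was in Ocln-KO replicate 1, where Marveld2 and Marveld3 were also highest. The part of basal cells in the level of Marveld2 was not tested. Krt14 did not pass without WT replicate 1, 2 or 3 or Ocln-KO replicate 2, when 0 genes of the list did, and 2 genes passed without Ocln-KO replicate 3.

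Smooth muscle markers summed to 1260, 1486 and 1234 CPM in the WT libraries against 1674, 2258 and 1868 CPM in the Ocln-KO libraries. Of 8 tested, 2 were higher, Myh11 and Actg2, at 0.77 and 1.09 on the log2 scale (adjusted p = 0.0296 and 0.0489, edgeR), while DESeq2 called 5 and limma-voom 1. Macrophage markers, led by Mrc1, had log2 fold changes above 0 in 8 of 8 genes, with a median of 0.58. They summed to 176, 157 and 155 CPM in the WT libraries against 180, 233 and 295 CPM in the Ocln-KO libraries. In edgeR 0 of the 8 passed, and 6 had an unadjusted p under 0.05, as did 29.1% of all tested genes. DESeq2, which called 16.8% of all tested genes, called 4 of the 8, and limma-voom 0. Macrophage sums were thus highest in Ocln-KO replicate 3, the library with the highest Zeb2, and their part in the rise of Zeb1 and Zeb2 was not tested.

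Lymphocyte markers, led by Cd3e, summed to 2.51, 3.05 and 2.85 CPM in the WT libraries against 5.02, 6.75 and 9.23 CPM in the Ocln-KO libraries. All 4 tested genes had a log2 fold change above 0 (median 1.29) and 3 an unadjusted p under 0.05 (29.1% of all tested genes had), while 0 passed in edgeR, DESeq2 or limma-voom and 2 passed without Ocln-KO replicate 1. Endothelial markers, led by Kdr, and fibroblast markers, led by Col1a1, had 0 of 6 and 0 of 7 genes called by the same 3 tools, with 2 of each at an unadjusted p under 0.05, where 29.1% of all tested genes were. Fibroblast markers summed to 5464 CPM in Ocln-KO replicate 3, against 1969 to 2748 CPM in the other libraries. Spermatid and sperm markers, led by Odf1, summed to 65.5 CPM in Ocln-KO replicate 3 and to 193 to 278 CPM elsewhere. Of these, 0 of 8 genes were called by the 3 tools and 0 had an unadjusted p under 0.05. Without Ocln-KO replicate 3, 1 of the sperm genes was called higher, and without Ocln-KO replicate 1, 1 of the fibroblast genes. Of 8 tested neuronal and glial markers, 1 was higher, the myelin gene Mbp (log2 fold change 0.62, adjusted p = 0.0315, edgeR), which was also the most abundant. Smooth muscle, macrophage and neuronal lists had 0 called genes without WT replicate 1, 2 or 3 or Ocln-KO replicate 2, and 5, 7 and 0 with Ocln-KO replicate 1 left out.

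Genes with the pattern most like Ocln, Marveld2 and Lsr over the 6 libraries were found by Pearson's r of log2 CPM among 16357 genes with a mean of at least 1 CPM. The libraries form 2 genotypes, so r is a description and mostly follows the genotype difference where that is large. Most like Ocln were Gpr50, an orphan receptor, Pigq, an enzyme of membrane anchor synthesis, and Tmem117, with r of 0.9996, 0.998 and 0.998. Pigq differed little, at 96.4 CPM in the WT and 81.6 CPM in the Ocln-KO libraries on average. It did not pass (log2 fold change -0.24, adjusted p = 0.0786, edgeR). Gpr50 fell from 5.28 ± 0.39 CPM in the WT to 0.44 ± 0.028 CPM in the Ocln-KO libraries (SD, n = 3, log2 fold change -3.57, adjusted p = 0.00236, edgeR).

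Most like Marveld2 were Gm32896, Nlrc5 and Gbp2, with r of 0.994, 0.992 and 0.991. Gm32896 did not pass (log2 fold change 0.96, adjusted p = 0.0859, edgeR). Nlrc5, the activator of MHC class I genes, averaged 5.33 ± 1.15 CPM in the WT libraries and 18.2 ± 6.91 CPM in the Ocln-KO libraries (SD, n = 3, log2 fold change 1.77, adjusted p = 0.0216, edgeR). Gbp2, an interferon-induced GTPase, held 6.76, 6.62 and 6.89 CPM in the WT libraries against 21.7, 16.1 and 10.2 CPM in the Ocln-KO libraries (log2 fold change 1.24, adjusted p = 0.0316, edgeR). Gpr50 passed with each library left out, whereas Nlrc5 and Gbp2 did not pass without WT replicate 1, 2 or 3 or Ocln-KO replicate 2. Most like Lsr were Gm5521, Hexim1 and Ighmbp2, with r of 0.985, 0.982 and 0.977, and like Lsr none of them passed the test.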

How the data were processed

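Whole-epididymis RNA of 3 WT and 3 Ocln-KO libraries was depleted of rRNA and sequenced in pairs from directional libraries. After trimming of adaptors and filtering on quality, the authors mapped the reads to GRCm38 using HISAT2 2.0.4 (version from the submitters' notes) and counted reads per gene with HTSeq. The deposited values are the resulting counts, whole numbers without normalization. The counting mode, strand setting and treatment of multiply aligned reads are not given in the sources used here.

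Columns were matched to samples by name and replicate number. Dates had replaced 27 gene symbols (0.145% of counts). In R 4.3.3, genes were kept by filterByExpr, scaled by TMM factors and compared unpaired with edgeR 4.0.16 (glmQLFit, glmQLFTest), p-values being adjusted by Benjamini-Hochberg over 19691 genes and calls at an adjusted p under 0.05. The standard error of a log2 fold change was its size over the root of F. Principal components and r used log2 CPM with a prior count of 2. Fits were tested on simulated data. Coordinates of genes and promoters come from RefSeq (GRCm38.p6), exon lengths, strands and overlaps from GENCODE M21. Shares used an exact two-sided permutation test. Total counts were at least 30646424 per library, and after TMM scaling 3 counts equalled 0.0802 to 0.0942 CPM, which covers counting error only.

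Alternatives were DESeq2 1.42.0, limma-voom (limma 3.58.1), RLE factors, total counts only, a replicate block, all genes with a count, only genes with 10 or more counts in each library, a 2-fold threshold, windows of 0.5 and 5 Mb, other lengths and each library left out. By junction lists are meant the 6 lists of junction, other MARVEL-domain and transcription factor genes. The 7 genes, the 6 junction lists and the 11 marker lists were chosen with earlier results of these data known. Named are all 7 genes, called genes of the junction lists (at most 5 per direction) with Tjp1 and Tjp3, of each marker list the most abundant gene and up to 3 called genes by size of change, called neighbours of Ocln with the nearest on each side, and the 3 genes most like Ocln, Marveld2 and Lsr. Crisp1 was named to check the tissue. The sums and shares of the MARVEL genes, list sums without the most abundant gene, neighbours without Marveld2 and the order by longest transcript were added after their values were seen. Some genes that this rule names are not reported here. Protein sequences and proteomes were not used here.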

Additional observations from a re-analysis of the deposited data

How the results depend on the processing

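Ocln kept its direction and its call in all 13 alternatives, from -2.56 to -2.41, and Marveld2 and Ildr2 kept their directions in all 13 and their calls in 8. The number of the 7 genes called ran from 1 to 3 with each library left out. Under the same omissions all genes called ran from 23 to 1692 (1762 with every library). Junction list genes ran from 0 to 13 and called neighbours of Ocln from 0 to 5. With a library fewer the test has less power. Why the counts fell most without a WT library or Ocln-KO replicate 2 was not tested. DESeq2 called 3312 genes (1604 higher and 1708 lower), 17 list genes and 7 neighbours, and limma-voom 2 neighbours. With a 2-fold threshold 628 genes and 2 of the 7 passed. A window of 5 Mb held 12 called neighbours. Same-numbered libraries deviated from their genotype means with correlations of -0.053, -0.031 and -0.0026, and every library correlated best with another number. These correlations rest on 3 libraries per genotype and cannot show whether the replicate numbers pair the samples. The methods speak of 3 pairs of mice, and what a pair shares is not stated. With the replicate block, 41 genes (10 higher and 31 lower), 1 of the 7, 0 list genes and 0 neighbours were called. Ildr1 reversed only without Ocln-KO replicate 1, at 0.021, with a range of -0.20 to 0.021 over the omissions and no call in any. The fall in the Ildr2 share of the angulins ran from -20.0 to -14.1 percentage points over the omissions, and was -19.5 with shares of counts (where Ildr1 rose from 17.5 ± 0.66 to 25.9 ± 6.48% without overlap, exact permutation p = 0.1) and -15.4 with the longest GENCODE transcript, RefSeq transcript lengths not being used here. Of 195 alternative counts for lists and directions with a reported count above 0, 98 were within 1.5 times that count. Depth limits Cldn9 and the lymphocyte markers, whose counts were few.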

Other observations

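Markers of the proximal epididymis differed widely in level. Of 10 genes for proximal principal cells, Lcn9, Rnase10, Cst11 and Adam28 had too few counts for a test, and Lcn8 and Cst8 stood at 1.76 ± 0.85 and 0.51 ± 0.13 CPM in WT (SD, n = 3). The same libraries held 7457 ± 1301 CPM of Adam7, the most abundant of the list, and 4928 ± 881 CPM of Lcn5. The list summed to 13475, 14596 and 10167 CPM in the WT libraries and to 8085, 23150 and 23343 CPM in the Ocln-KO libraries. The 1 gene called was Gpx5, an epididymal glutathione peroxidase, with 54.5, 172 and 26.3 CPM in the WT libraries against 256, 7264 and 10039 CPM in the Ocln-KO libraries (log2 fold change 6.12, adjusted p = 0.0359, edgeR). Ocln-KO replicates 2 and 3 held nearly all of it, and replicate 1, the library with the highest Marveld2, was the nearest to WT. Without WT replicate 2 the log2 fold change of Gpx5 was 7.18, and without Ocln-KO replicate 3 it was 5.49. The proximal list had no called gene without WT replicate 1, 2 or 3 or Ocln-KO replicate 2.

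Among claudins, Cldn2, which forms pores for cations, was chosen after its values were seen. It held 25.02, 26.7 and 17.1 CPM in the WT libraries and 8.45, 69.0 and 108.7 CPM in the Ocln-KO libraries (log2 fold change 1.44, adjusted p = 0.223, edgeR). Ocln-KO replicate 1 lay below every WT library and the other Ocln-KO libraries above all of them, and replicate 1 was the lowest of the Ocln-KO libraries for Gpx5 too.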
